A study of Mus musculus with 13 samples.

Results

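Alveolar macrophages are the resident phagocytes of the lung's airspaces, and 9 genes listed as markers of them in the mouse were followed here across 4 groups of sorted cells. The genes were chosen by name, as markers of alveolar macrophage identity, with earlier results of these data known. They are Siglecf, Car4, Anpep, Csf2ra, Csf2rb, Ear1, Ear2, Chil3 and Krt79, and all 9 matched a single identifier among the 43430 genes of the deposited count table. All 9 passed the filter on low counts, as did 11906 genes in all.

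Male C57Bl/6 mice, 10 weeks old, were the source of the cells, which were sorted by flow cytometry before their polyadenylated RNA was sequenced. Drinking water with metformin (100 mg/kg/day), a biguanide that lowers blood glucose, started 24 h before an instillation into the trachea. The instillate was 10 µg of a standard particulate matter (PM) from the US standards institute or phosphate-buffered saline (PBS), and the cells were harvested 24 h later. The groups were metformin with PM (n = 3), vehicle with PM (n = 3), metformin with PBS (n = 3) and vehicle with PBS (n = 4), each library being a separate biological replicate by the study's design text.

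The 13 libraries held 5.57 to 8.10 megacounts assigned to genes, and mitochondrial transcripts took 0.893 to 1.07% of them. No 2 replicates of a group differed by as little as sampling noise. The numbers in the library titles run in order through the groups, so any order of handling cannot be told apart from the groups. The label was checked against markers. The 30 other alveolar macrophage markers listed, 29 of them tested, summed to 31310 to 34124 CPM (counts per megacount of the scaled library size) in each library. Of the 8 eosinophil markers listed, the defining genes Epx, Prg2, Prg3 and Ccr3 had 0 counts in all 13 libraries, which allows up to 0.035 CPM (3 counts of 85616379, counting error only), and Cd24a, at 161 to 180 CPM in the group means, made up most of the list's sum. Il5ra and Alox15 had at most 1 count in any group. Of the 2 tested, Ear6 rose with PM in both arms (edgeR adjusted p = 4.71e-06 on metformin and 0.00582 on vehicle), and Cd24a was not called. Of the 10 neutrophil markers Ly6g, Retnlg and Camp had 0 counts, while Csf3r averaged 22.4 to 32.9 CPM, Cxcr2 4.68 to 7.38 CPM and S100a8 at least 3.42 CPM over the groups. The neutrophil list summed to 26.3 to 46.2 CPM per library, and the log2 fold changes of its 3 tested genes with PM were −0.24 to 0.13 on metformin and −0.66 to −0.18 on vehicle, with edgeR adjusted p of 0.103 or more. The 7 lymphocyte markers summed to 1.87 to 5.71 CPM in metformin PM, 1.95 to 5.60 CPM in vehicle PM, 0.924 to 1.43 CPM in metformin PBS and 1.25 to 1.72 CPM in vehicle PBS libraries, and Igkc, the only 1 tested, rose with PM in both arms (edgeR adjusted p = 0.0142 on metformin and 0.0255 on vehicle). Dendritic cell markers summed to 9.17 to 19.1 CPM, and of 2 tested Batf3 fell with PM on metformin (edgeR adjusted p = 0.0476). After PM, Batf3 was also lower on metformin than on vehicle (log2 fold change −1.45; edgeR adjusted p = 0.00134). An edgeR adjusted p under 0.05 was found for 12.8% of all tested genes with PM on metformin and 4.85% on vehicle. With metformin after PM it was found for 6.89%.

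As background, alveolar macrophages settle in the lung around birth and depend on granulocyte-macrophage colony-stimulating factor (GM-CSF), which lung epithelium supplies. GM-CSF binds a receptor made of a specific alpha chain, encoded by Csf2ra, and a beta chain shared with the receptors for interleukin 3 and interleukin 5, encoded by Csf2rb. The receptor signals through the kinase JAK2 and the transcription factor STAT5, and in these cells it maintains PU.1 and PPARγ, on which surfactant clearance depends. Surface markers of the mature cell include the sialic acid-binding lectin Siglec-F and membrane-bound carbonic anhydrase 4, and its secreted products include the chitinase-like protein Chil3 and small ribonucleases of the Ear family.

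Chil3 was the most abundant of the 9 genes in every library and Anpep the least abundant. Levels of different genes are compared here only as CPM per kb of annotated exon. Chil3 averaged 9888 CPM per kb over the groups and ranked 2 of 11833 tested genes with a length, Ear2 had 1706 and ranked 14, and Ear1 had 555 and ranked 43. Car4 (309 CPM per kb), Siglecf (195), Csf2ra (175), Krt79 (136) and Csf2rb (130) ranked between 115 and 341. Anpep, at 3.93 CPM per kb, ranked 7559. The order of these 5 middle genes depended on the gene length used, while Chil3, Ear2 and Ear1 came first and Anpep last with either. Together the 9 genes took 1.87 to 2.39% of a library's counts, and Chil3 alone took 1.35 to 1.91%.

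**Figure D1:**
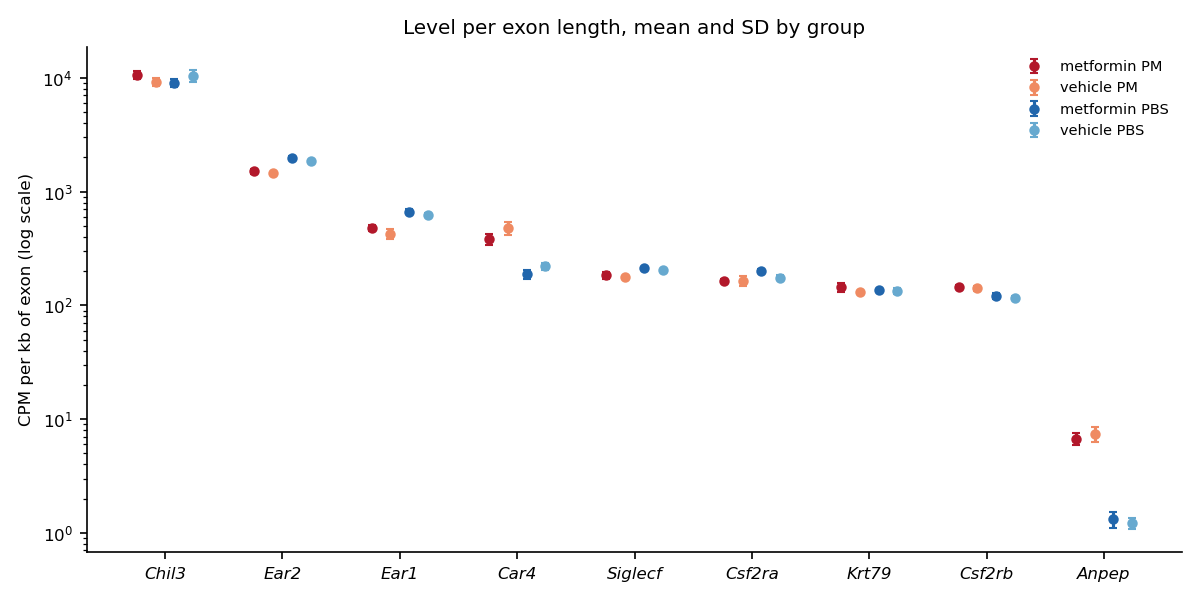
Level of each marker gene as CPM per kb of exon on a log axis, with points for the group mean and bars for the SD over 3 or 4 libraries. Group means of Chil3 lie between 8993 and 10615 CPM per kb, those of the 7 middle genes between 116 and 1974, and those of Anpep between 1.22 and 7.35.

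The comparison of PM with PBS asks what followed the particles, and it was made within each drinking-water arm on separate libraries. In animals on metformin 3 of the 9 genes rose (Anpep, Car4 and Csf2rb) and 4 fell (Ear1, Ear2, Siglecf and Csf2ra). Across all tested genes 12.8% were called in that comparison, 7.18% higher and 5.6% lower. In animals on vehicle 6 of these 7 genes were called, 3 higher and 3 lower in the same directions, and Csf2ra was not, against 4.85% of all tested genes called (2.6% higher and 2.26% lower). A gene is called here at a Benjamini-Hochberg adjusted p under 0.05 over all tested genes in edgeR's quasi-likelihood test, the source of every adjusted p below. Libraries of the 2 groups did not overlap in CPM for 8 of the 9 genes on metformin (30% of all tested genes) and for 6 of the 9 on vehicle (14.9% of all tested genes). The median log2 fold change of the 9 genes was 0.09 on metformin and −0.09 on vehicle, against medians of 0.0048 and −0.0013 over all tested genes. In bulk RNA of sorted cells, fewer cells of a type and less RNA per cell cannot be told apart.

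**Figure D2:**
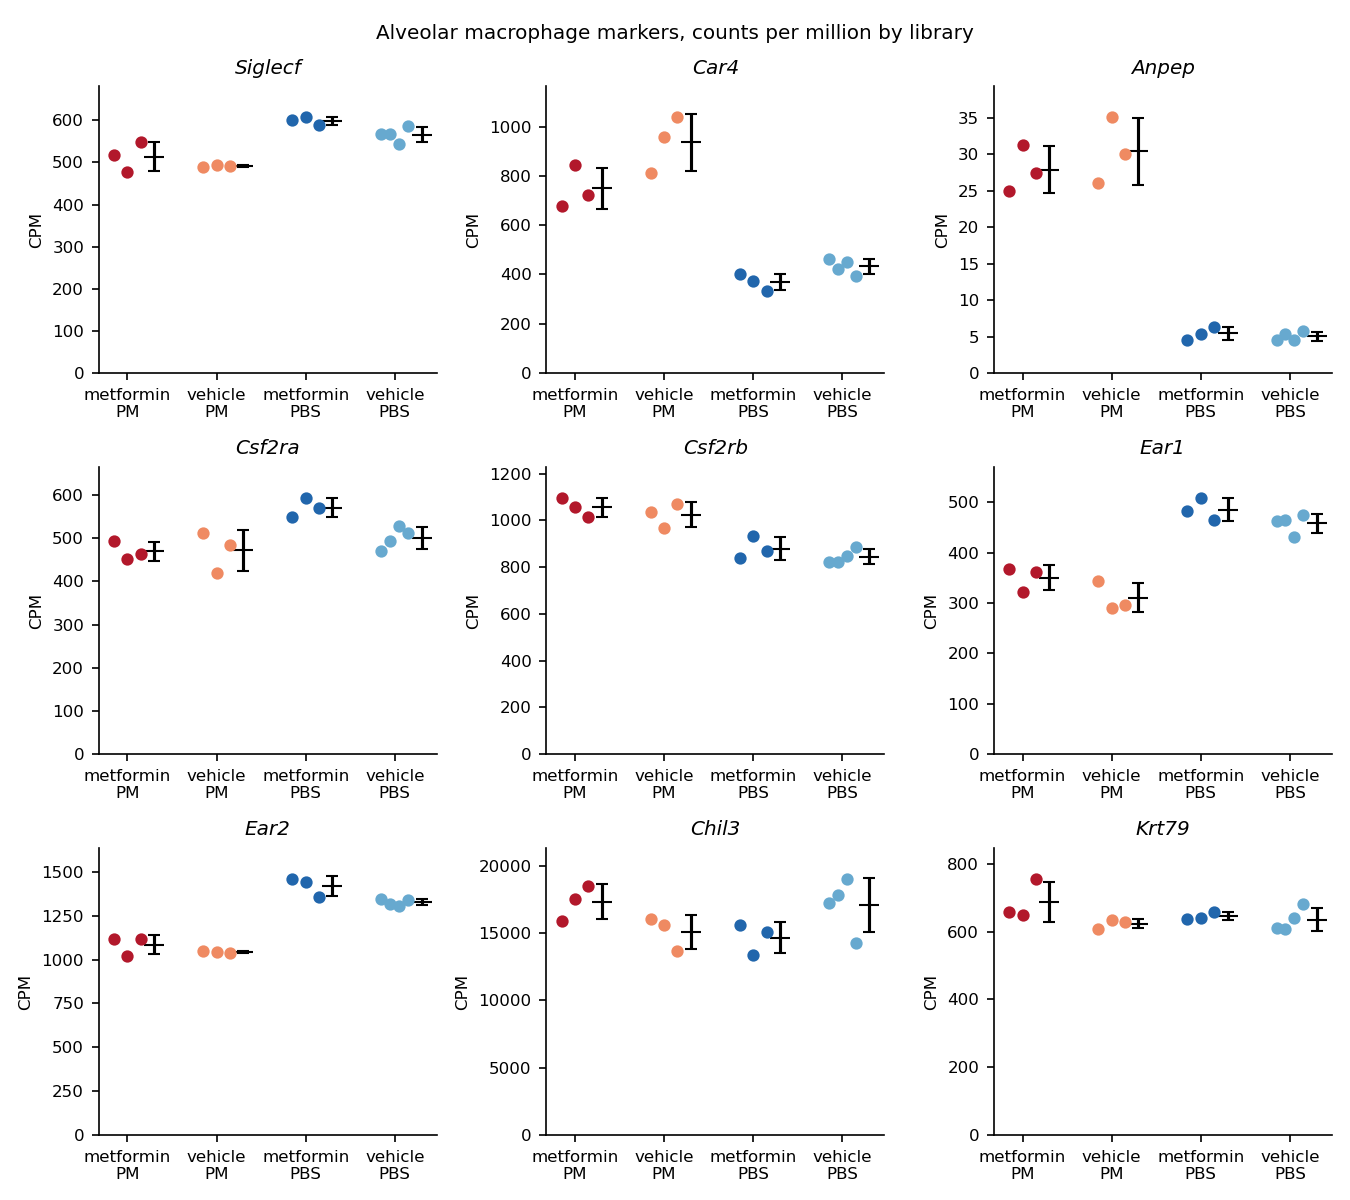
CPM of each marker gene in each of the 13 libraries, with 1 point per library and, beside each group, the mean and SD (n = 3, 3, 3 and 4). Car4, Anpep and Csf2rb lie higher in all 6 PM libraries than in all 7 PBS libraries, and Ear1 and Ear2 lie lower.

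Siglecf encodes the sialic acid-binding lectin Siglec-F, found on alveolar macrophages and eosinophils (ENSMUSG00000039013; mm10 chromosome 7, 43351341 to 43359531, plus strand). Its protein is commonly part of the gate for sorting these cells, and the gate used is not given in the sources used here. Siglecf had 517, 477 and 547 CPM in metformin PM libraries, 489, 495 and 491 CPM in vehicle PM libraries, 600, 608 and 589 CPM in metformin PBS libraries and 567, 568, 543 and 587 CPM in vehicle PBS libraries. The PM libraries lay below the PBS libraries within each arm, and across arms only the highest metformin PM library reached into the vehicle PBS range. Siglecf fell with PM by 0.22 ± 0.05 on the log2 scale on metformin (SE; edgeR adjusted p = 0.00830) and by 0.20 ± 0.05 on vehicle (edgeR adjusted p = 0.0181). Single libraries decided these calls. On metformin the edgeR adjusted p was 0.0513 without metformin PM 3, at a log2 fold change of −0.18. On vehicle it was 0.0677 without vehicle PM 1, 0.0715 without vehicle PM 3 and 0.0593 without vehicle PBS 4, at log2 fold changes of −0.20, −0.20 and −0.19.

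Car4 encodes carbonic anhydrase 4, an enzyme tethered to the outer face of the membrane that interconverts carbon dioxide and bicarbonate (ENSMUSG00000000805; chromosome 11, 84957786 to 84966044, plus strand). It had 679, 843 and 725 CPM in metformin PM libraries and 810.0, 959 and 1040.2 CPM in vehicle PM libraries. The PBS libraries had 401, 374 and 335 CPM on metformin and 464, 422, 451 and 394 CPM on vehicle. Every PM library was thus far above every PBS library, and the lowest of the PM libraries was a metformin one. Car4 rose with PM 2.03-fold on metformin (log2 fold change 1.02 ± 0.09, SE; edgeR adjusted p = 5.66e-07) and 2.16-fold on vehicle (1.11 ± 0.08; edgeR adjusted p = 1.14e-07).

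Car4 is also a marker of lung capillary endothelium, of which 8 other markers were listed and 6 tested. With PM 3 of them rose on metformin, namely Pecam1 (1.13 ± 0.25 on the log2 scale), Vwf (0.28 ± 0.08) and Cldn5 (1.59 ± 0.51), with edgeR adjusted p = 0.00578, 0.0177 and 0.0463. On vehicle Vwf alone rose (0.39 ± 0.07; edgeR adjusted p = 0.00168), and Pecam1 also rose with metformin after PM (0.96 ± 0.25; edgeR adjusted p = 0.0220). Of all tested genes 12.8% were called with PM on metformin, 4.85% with PM on vehicle and 6.89% with metformin after PM. Pecam1, a junction protein gene, averaged 6.29 ± 1.15 CPM in metformin PM, 3.25 ± 1.03 in vehicle PM, 2.87 ± 0.40 in metformin PBS and 2.63 ± 0.72 in vehicle PBS libraries (SD). The 8 markers summed to 149 to 171 CPM in metformin PM libraries, 153 to 190 CPM in vehicle PM libraries, 121 to 126 CPM in metformin PBS libraries and 123 to 146 CPM in vehicle PBS libraries. Vwf made up most of that sum, at 138 ± 9.07, 159 ± 13.04, 113 ± 3.92 and 121 ± 10.1 CPM in the same order of groups (SD). The part of endothelial RNA in the rise of Car4 was not tested.

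Anpep encodes aminopeptidase N, also called CD13, a peptidase of the surface of myeloid and epithelial cells (ENSMUSG00000039062; chromosome 7, 79821803 to 79848210, minus strand). It had 24.9, 31.3 and 27.4 CPM in metformin PM libraries and 26.0, 35.1 and 30.1 CPM in vehicle PM libraries. After PBS it had 4.58, 5.42 and 6.31 CPM on metformin and 4.59, 5.33, 4.46 and 5.72 CPM on vehicle, which rest on 28 to 41 counts per library. All 6 PM libraries lay above all 7 PBS libraries, and the drinking-water arms overlapped within each instillate. Anpep rose 5.10-fold on metformin (2.35 ± 0.16 on the log2 scale; edgeR adjusted p = 1.18e-08) and 6.04-fold on vehicle (2.59 ± 0.15; edgeR adjusted p = 1.9e-09). Of the 9 genes it had the largest change with PM in both arms and the lowest level.

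Anpep and Car4 are expressed by other cells too, and some genes that mark monocytes or macrophages derived from them rose with PM. The 18 listed summed to 3450 to 3817 CPM in metformin PM libraries, 3373 to 4367 CPM in vehicle PM libraries, 3057 to 3530 CPM in metformin PBS libraries and 2423 to 2852 CPM in vehicle PBS libraries. Of 11 tested, 4 rose on metformin (Mmp14, Itgam, Mmp12 and Cd14), where Apoe fell, and 5 rose on vehicle (the same 4 and Fn1). Among all tested genes 12.8% were called with PM on metformin and 4.85% on vehicle. Itgam, an integrin chain of myeloid cells, rose by 1.67 ± 0.20 on metformin and by 1.36 ± 0.17 on vehicle, and Cd14, a co-receptor for lipopolysaccharide, by 0.35 ± 0.07 and 0.26 ± 0.07. The chemokine receptor gene Ccr2 averaged 4.39 CPM in metformin PM, 7.22 in vehicle PM, 7.36 in metformin PBS and 8.26 in vehicle PBS libraries and was not called, and Ly6c2 did not exceed 0.255 CPM in any library and was not tested.

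Of the 9 epithelial markers listed 6 were tested. With PM on metformin the surfactant protein genes Sftpa1 (1.51 ± 0.33), Sftpc (1.23 ± 0.27) and Sftpb (1.26 ± 0.33) rose and the adhesion protein gene Epcam fell (−0.42 ± 0.12), with edgeR adjusted p = 0.00422, 0.00502, 0.0167 and 0.0272. On vehicle Sftpa1 (0.47 ± 0.32), Sftpc (0.30 ± 0.27), Sftpb (0.48 ± 0.34) and Epcam (−0.34 ± 0.12) were not called. With metformin after PM Ager, a receptor gene of flat alveolar epithelium, rose (0.91 ± 0.26; edgeR adjusted p = 0.0371). The shares of all tested genes called were 12.8% with PM on metformin, 4.85% with PM on vehicle and 6.89% with metformin after PM. Sftpc averaged 46.6 ± 17.9 CPM in metformin PM, 29.1 ± 13.9 in vehicle PM, 19.6 ± 2.20 in metformin PBS and 23.3 ± 5.16 in vehicle PBS libraries (SD). The whole list, of which Epcam was the largest part, summed to 172 to 220 CPM in metformin PM, 133 to 177 CPM in vehicle PM, 161 to 219 CPM in metformin PBS and 143 to 177 CPM in vehicle PBS libraries. The part of a change in cell mix in the rises of Anpep and Car4 was not tested.

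The annotated promoters of Car4 and Anpep are shown because these members rose the most with PM. Promoter sequences are RefSeq's (GRCm38.p6), 5′ to 3′ on the gene's strand, and all members but Csf2rb had one. They run from 250 bases before to 50 after RefSeq's start of the gene. For Car4 and Ear1 that start is not where the gene span given here begins on its strand. Each promoter was searched on both strands for 6 motifs. They were the STAT motif TTCNNNGAA of STAT5, the motif AGGAAGT of PU.1, and for AP-1 the letters TGANTCA. The antioxidant response element was searched as TGACNNNGC, the NF-kB motif as GGGNNTTCC, and the TATA box by its letters TATAAA. Capitals mark the letters TATAAA, which begin 42 bases after RefSeq's start of Car4, and Anpep held none of the 6 motifs.
Car4 (chr11:84957504-84957803, plus strand): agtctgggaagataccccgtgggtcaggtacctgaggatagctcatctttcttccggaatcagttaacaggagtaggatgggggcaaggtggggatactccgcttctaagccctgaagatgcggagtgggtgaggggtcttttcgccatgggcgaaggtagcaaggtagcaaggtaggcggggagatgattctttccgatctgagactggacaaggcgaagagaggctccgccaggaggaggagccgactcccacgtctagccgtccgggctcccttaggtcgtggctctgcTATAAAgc
Anpep (chr7:79848161-79848460, minus strand): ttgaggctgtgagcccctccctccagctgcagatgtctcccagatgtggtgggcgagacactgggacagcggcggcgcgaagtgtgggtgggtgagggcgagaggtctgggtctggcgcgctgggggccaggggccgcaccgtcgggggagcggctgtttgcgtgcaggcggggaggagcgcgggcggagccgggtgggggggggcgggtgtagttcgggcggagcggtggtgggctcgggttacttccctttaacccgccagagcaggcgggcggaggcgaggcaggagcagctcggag
Among 32851 promoters of the same length, TATAAA was found in 13.6%, TGANTCA in 7.81%, TGACNNNGC in 12.4% and GGGNNTTCC in 5.82%. Of the 8 member promoters, that of Siglecf alone held GGGNNTTCC, starting 70 bases before the gene's start. A match of letters is a description of the window and not a site of binding.

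Csf2ra and Csf2rb, the alpha and beta chains of the GM-CSF receptor, had different patterns across the groups. Csf2ra (ENSMUSG00000059326; chromosome 19, 61224402 to 61228418, minus strand) had 494, 451 and 465 CPM in metformin PM libraries and 512, 420.3 and 484 CPM in vehicle PM libraries. Its PBS libraries had 550, 594 and 570.5 CPM on metformin and 471, 493, 529 and 511 CPM on vehicle. The 3 metformin PBS libraries were the highest of the 13, and the other 3 groups overlapped. Csf2ra fell with PM on metformin (−0.28 ± 0.07 on the log2 scale; edgeR adjusted p = 0.00754) and was not called on vehicle (−0.09 ± 0.06; 95% interval −0.22 to 0.04; edgeR adjusted p = 0.549). The difference between these 2 effects was −0.19 ± 0.09 and did not pass the threshold (edgeR adjusted p = 0.412).

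Csf2rb (ENSMUSG00000071713; chromosome 15, 78325990 to 78351000, plus strand) had 1097, 1056 and 1017 CPM in metformin PM libraries and 1037, 966 and 1070 CPM in vehicle PM libraries. In PBS animals the values were 837, 932 and 869 CPM on metformin and 820.0, 820.5, 849 and 888 CPM on vehicle. All 6 PM libraries were above all 7 PBS libraries. The rise was 1.20-fold on metformin (0.27 ± 0.06 on the log2 scale; edgeR adjusted p = 0.00310) and 1.21-fold on vehicle (0.28 ± 0.05; edgeR adjusted p = 0.00205). The ratio of Csf2rb to Csf2ra in CPM averaged 2.25 ± 0.081 in metformin PM libraries and 2.18 ± 0.14 in vehicle PM libraries (SD). It averaged 1.54 ± 0.027 in metformin PBS libraries and 1.69 ± 0.065 in vehicle PBS libraries, and the ranges of the PM and PBS groups did not overlap. The ratio is given without a test. It is not corrected for gene length, so it compares the groups and not the chains with each other. Per kb of exon Csf2ra averaged 175 CPM and Csf2rb 130 CPM.

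Csf2rb has a close paralog in the mouse, Csf2rb2, the beta chain used by interleukin 3 alone (ENSMUSG00000071714; chromosome 15, 78282517 to 78305603, minus strand). Of the stretches of 75 bases, the read length, in Csf2rb transcripts, 7.15% also occur in Csf2rb2, so reads there may have been lost or assigned to either gene. Csf2rb2 had 340.0, 323 and 327 CPM in metformin PM libraries and 290.3, 304 and 333 CPM in vehicle PM libraries. PBS libraries held 243, 260.3 and 242 CPM on metformin and 231, 239.6, 233 and 265 CPM on vehicle. Each PM library lay above each PBS library. Csf2rb2 rose with PM on metformin (0.41 ± 0.06; edgeR adjusted p = 0.000192) and on vehicle (0.35 ± 0.06; edgeR adjusted p = 0.000785). With the counts of both genes summed the rise was 0.30 ± 0.05 in each arm (edgeR adjusted p = 0.00108 in both).

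**Figure D3:**
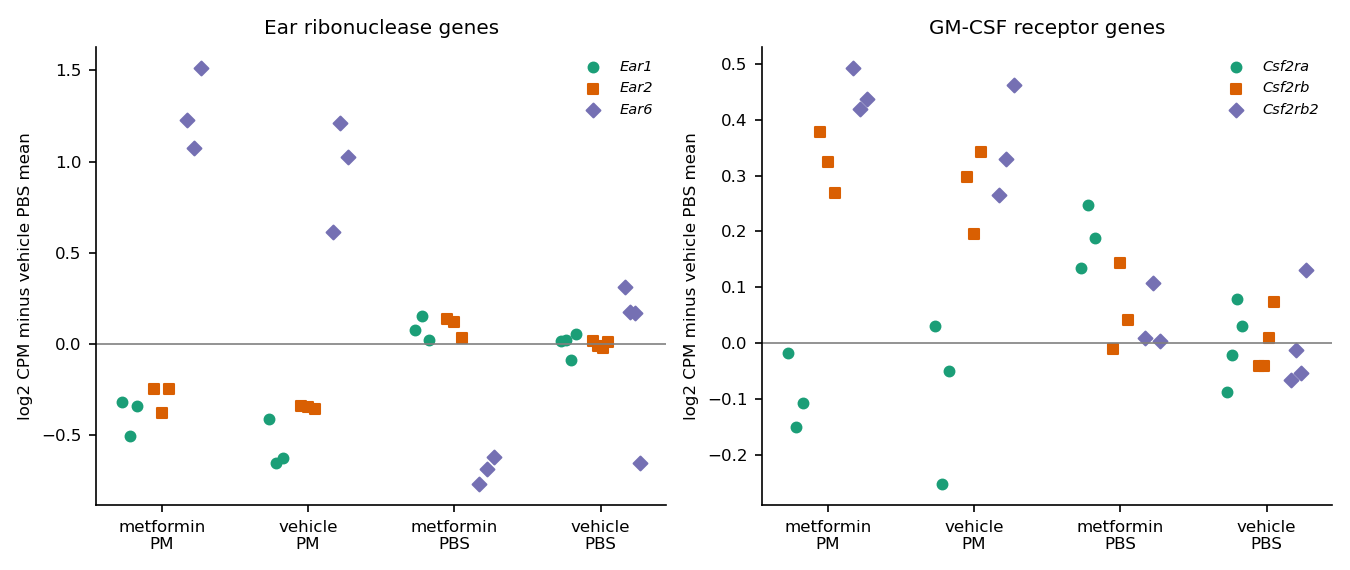
Log2 CPM of each library minus the mean of the vehicle PBS libraries, for 3 Ear ribonuclease genes and for 3 GM-CSF receptor genes, with 1 point per library. Ear6 lies above 0 in all 6 PM libraries where Ear1 and Ear2 lie below 0, and Csf2rb and Csf2rb2 lie above 0 in all 6 PM libraries, of which Csf2ra lies above 0 in 1.

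The genes that act with the receptor were counted in a list of 27, of which 25 were tested. With PM 4 rose and 4 fell on metformin, where 12.8% of all tested genes were called, and 4 rose and 0 fell on vehicle, where 4.85% were. The list's median log2 fold change was −0.04 on metformin and −0.0075 on vehicle, against 0.0048 and −0.0013 over all tested genes. Of the feedback inhibitor genes, Socs3 and Cish rose in both arms. Socs3, which STAT3 and STAT5 are known to induce, averaged 76.1 ± 18.5 CPM in metformin PM, 78.9 ± 12.8 in vehicle PM, 21.5 ± 3.78 in metformin PBS and 20.9 ± 5.26 in vehicle PBS libraries (SD). Its rise was 1.83 ± 0.18 on metformin (edgeR adjusted p = 1.67e-06) and 1.91 ± 0.17 on vehicle (edgeR adjusted p = 5.65e-07) on the log2 scale. Cish, a STAT5 target that restrains cytokine receptors, rose by 0.73 ± 0.15 on metformin and 0.76 ± 0.15 on vehicle (edgeR adjusted p = 0.00294 and 0.00405). Csf2rb2 completes the genes that rose in both arms.

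Another 6 genes of the list were called with PM in 1 arm each. On metformin Pparg, encoding the lipid-sensing receptor PPARγ, rose (0.38 ± 0.09; edgeR adjusted p = 0.00549), and on vehicle its value was 0.22 ± 0.08 and not called. The signal transducers Stat5a (−0.47 ± 0.08) and Stat5b (−0.29 ± 0.07), Spi1, which encodes PU.1 (−0.28 ± 0.06), and the phosphatase gene Ptpn6 (−0.24 ± 0.05) fell with PM on metformin and were not called on vehicle. The survival kinase gene Pim1 had a log2 fold change of −0.09 ± 0.08 on metformin, which was not called, and rose on vehicle (0.39 ± 0.08; edgeR adjusted p = 0.00460). Of these 6 genes the difference between the arms passed the threshold for Stat5a (−0.48 ± 0.11; edgeR adjusted p = 0.0229) and Pim1 (−0.48 ± 0.11; edgeR adjusted p = 0.0413). Jak2, the kinase bound to the receptor, was not called in either arm (−0.09 ± 0.08 on metformin and 0.03 ± 0.08 on vehicle). Csf2 itself, the gene of GM-CSF, had 3 counts in all 13 libraries together.

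**Figure D4:**
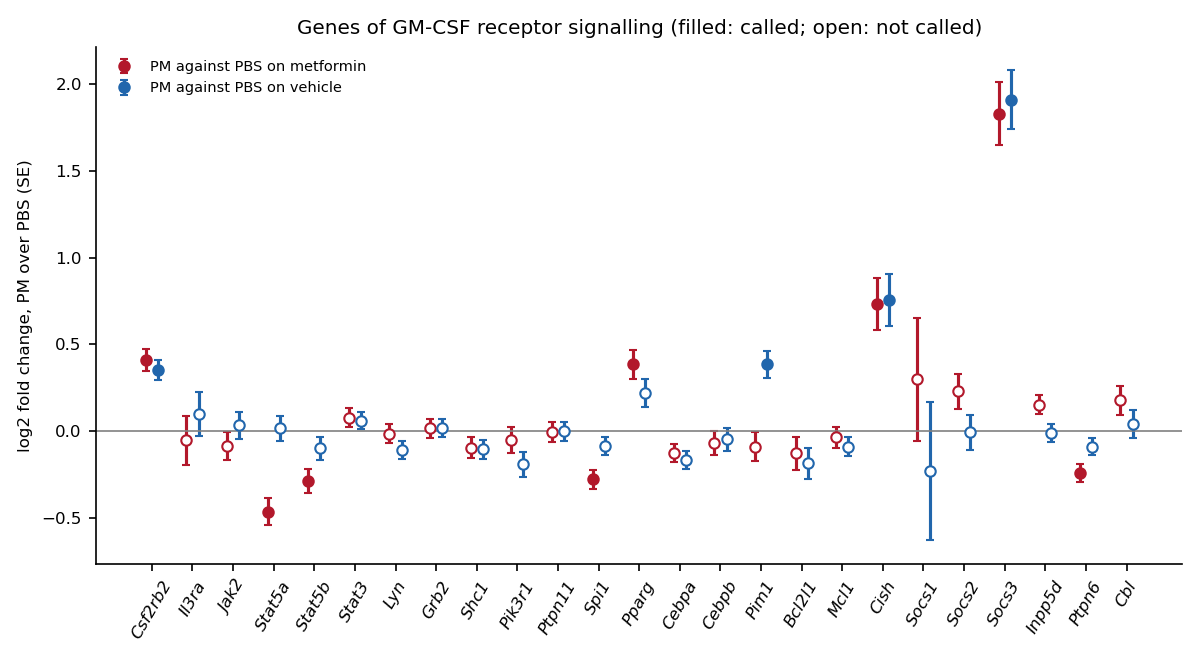
Log2 fold change of PM over PBS with its SE for the 25 tested genes that act with the GM-CSF receptor, on metformin and on vehicle. Filled points are called at an adjusted p under 0.05: Socs3, Cish and Csf2rb2 in both arms, Stat5a, Stat5b, Spi1, Ptpn6 and Pparg in the metformin arm, and Pim1 in the vehicle arm.

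Ear1 and Ear2 encode secreted ribonucleases named after eosinophils, and in the lung of the mouse both are known as alveolar macrophage transcripts. Ear1 (ENSMUSG00000072601; chromosome 14, 43818765 to 43875517, minus strand) had 367, 323 and 361 CPM in metformin PM libraries and 344, 291 and 297 CPM in vehicle PM libraries. With PBS there were 484, 509 and 464 CPM on metformin and 462, 464, 431 and 475 CPM on vehicle. All 6 PM libraries lay below all 7 PBS libraries. Ear1 fell with PM by 0.47 ± 0.07 on the log2 scale on metformin (edgeR adjusted p = 9.08e-05) and by 0.56 ± 0.06 on vehicle (edgeR adjusted p = 1.39e-05).

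Ear2 (ENSMUSG00000072596; chromosome 14, 44102654 to 44103534, plus strand) had 1116, 1021 and 1116 CPM in metformin PM libraries and 1048, 1042 and 1038 CPM in vehicle PM libraries. For PBS the libraries showed 1460.2, 1443 and 1355 CPM on metformin and 1343, 1316.5, 1307 and 1338 CPM on vehicle. The PM libraries again lay below all PBS libraries, and the vehicle PM libraries differed from each other by little, with a coefficient of variation of 0.508%. Ear2 fell by 0.39 ± 0.05 on metformin (edgeR adjusted p = 1.88e-05) and by 0.35 ± 0.05 on vehicle (edgeR adjusted p = 6.63e-05).

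The Ear genes are near copies, and 39.3% of the 75-base stretches of Ear1 and 23.4% of those of Ear2 also occur in another gene of the family. How the authors' counting divided such reads is not given in the sources used here, so the split between Ear1 and Ear2 is uncertain. Ear1 also shares 17 exonic bases with the pseudogene Ear-ps9, which had 2 counts in all. With Ear1, Ear2, Ear6 and Ear10 summed before the fit, the sum fell by 0.40 ± 0.05 on metformin and by 0.39 ± 0.05 on vehicle (edgeR adjusted p = 2.05e-05 and 2.29e-05). The promoters of Ear1 and Ear2 are shown because the genes fell together. The Ear1 window lies inside the gene span given above, not at its end, 43875517, where a gene on the minus strand begins. Over the 298 bases in which the 2 windows align, 294 were identical (98.7%), with 3 mismatched bases and 1 gap. Capitals mark the bases that differ, and neither window held any of the 6 motifs.
Ear1 (chr14:43819590-43819889, minus strand): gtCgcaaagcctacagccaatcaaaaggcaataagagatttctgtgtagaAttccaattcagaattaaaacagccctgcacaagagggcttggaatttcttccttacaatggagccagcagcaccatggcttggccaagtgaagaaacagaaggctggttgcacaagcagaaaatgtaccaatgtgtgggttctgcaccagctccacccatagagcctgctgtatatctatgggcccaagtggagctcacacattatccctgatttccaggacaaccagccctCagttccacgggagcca
Ear2 (chr14:44102404-44102703, plus strand): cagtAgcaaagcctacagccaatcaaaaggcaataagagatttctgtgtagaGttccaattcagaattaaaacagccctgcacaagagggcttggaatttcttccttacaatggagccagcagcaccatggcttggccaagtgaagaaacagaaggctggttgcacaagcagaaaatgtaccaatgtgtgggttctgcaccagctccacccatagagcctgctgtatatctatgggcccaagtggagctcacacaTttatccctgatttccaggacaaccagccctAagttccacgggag

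Ear6, a paralog that shares no 75-base stretch with them (ENSMUSG00000062148; chromosome 14, 51853699 to 51854643, plus strand), was higher after PM. It had 14.6, 13.1 and 17.9 CPM in metformin PM libraries and 9.46, 14.5 and 12.7 CPM in vehicle PM libraries. Values after PBS were 3.44, 3.66 and 3.85 CPM on metformin and 7.60, 6.89, 6.86 and 3.75 CPM on vehicle. Each PM library lay above each PBS library, and 1 vehicle PBS library lay with the metformin PBS ones. Ear6 rose 4.12-fold with PM on metformin (2.04 ± 0.22 on the log2 scale; edgeR adjusted p = 4.71e-06) and 1.91-fold on vehicle (0.94 ± 0.19; edgeR adjusted p = 0.00582). The difference between the arms was 1.11 ± 0.31 and was not called (edgeR adjusted p = 0.0851). Ear10 had 0 to 3 counts per library and was not tested.

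Chil3 encodes Ym1, a chitinase-like lectin that alveolar macrophages secrete and that interleukin 4 is known to raise in mouse macrophages (ENSMUSG00000040809; chromosome 3, 106147554 to 106167564, minus strand). It had 15935, 17519 and 18518 CPM in metformin PM libraries and 16074, 15590 and 13696 CPM in vehicle PM libraries. In the PBS groups it had 15574, 13345 and 15111 CPM on metformin and 17275, 17818, 19048 and 14272 CPM on vehicle. The highest groups were metformin PM and vehicle PBS, and vehicle PBS 4 was the lowest of its group, though not an outlier by Dixon's test. Among the metformin libraries all 3 PM values lay above all 3 PBS values, while on vehicle the ranges overlapped.

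Whether Chil3 was called depended on the processing, and with the filter on low counts and all 13 libraries no comparison called it. Its log2 fold change with PM was 0.24 ± 0.09 on metformin (95% interval 0.06 to 0.42; edgeR adjusted p = 0.0734) and −0.18 ± 0.08 on vehicle (−0.35 to −0.01; edgeR adjusted p = 0.260). The difference of these effects was 0.42 ± 0.12 (0.17 to 0.66; edgeR adjusted p = 0.0900; unadjusted p = 0.00203). With no filter on low counts, in a fit of 21968 genes, Chil3 was called in all 5 comparisons. Chil3 then had smaller SEs than with the filter, at log2 fold changes close to those with it. Its log2 fold change was then 0.23 ± 0.04 with PM on metformin (edgeR adjusted p = 6.42e-06), −0.17 ± 0.04 with PM on vehicle (0.00164), −0.22 ± 0.04 with metformin after PBS (2.07e-05) and 0.19 ± 0.04 with metformin after PM (0.00095), and the difference was 0.40 ± 0.06 (1.04e-08). With the filter but without vehicle PBS 4 the difference was 0.49 ± 0.10 (edgeR adjusted p = 0.0112), the PM effect on vehicle was −0.26 ± 0.07 (edgeR adjusted p = 0.0413) and the metformin effect after PBS was −0.30 ± 0.07 (edgeR adjusted p = 0.0157). In a fit of the metformin groups alone the PM effect was 0.23 ± 0.07 (edgeR adjusted p = 0.0400). Of the 75-base stretches of Chil3, 13% also occur in Chil4 or the predicted gene Gm6522. Chil4 had 0.924 to 2.73 CPM in the 13 libraries, and adding its counts left the log2 fold changes of Chil3 with PM at 0.24 and −0.18.

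The promoter of Chil3 is shown because, of the 8 member promoters, it alone held the letters TTCNNNGAA and AGGAAGT. Capitals mark TTCTTAGAA, starting 172 bases before the gene's start, AGGAAGT on the opposite strand, 60 bases before it, and TATAAA, 3 bases before it.
Chil3 (chr3:106167515-106167814, minus strand): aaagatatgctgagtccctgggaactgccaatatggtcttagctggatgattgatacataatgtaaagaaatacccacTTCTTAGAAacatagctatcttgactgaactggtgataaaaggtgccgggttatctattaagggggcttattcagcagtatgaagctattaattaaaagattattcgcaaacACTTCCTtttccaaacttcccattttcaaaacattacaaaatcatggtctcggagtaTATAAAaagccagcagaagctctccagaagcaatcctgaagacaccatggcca
Of all 32851 promoters, 8.30% held TTCNNNGAA and 9.35% held AGGAAGT.

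Genes that interleukin 4 is known to raise beside Chil3 formed a list of 18, of which 12 were tested. With PM 4 rose on metformin and 4 on vehicle, against 7.18% and 2.6% of all tested genes, and 0 fell in either arm. The other 8 tested genes were not called in each arm. Arg1, Retnla, Clec10a, Mgl2, Ccl24 and Alox15 were not tested and averaged at most 1.39 CPM in any group. The list's median log2 fold change was 0.16 on metformin and 0.012 on vehicle, against 0.0048 and −0.0013 over all tested genes. Fcgr2b, an inhibitory receptor for immunoglobulin G, rose by 0.76 ± 0.08 on metformin and 0.94 ± 0.08 on vehicle (edgeR adjusted p = 4.47e-06 and 3.38e-07). The chemokine gene Ccl17 averaged 5.76 ± 2.07 CPM in metformin PM, 4.48 ± 0.573 in vehicle PM, 0.642 ± 0.442 in metformin PBS and 0.733 ± 0.200 in vehicle PBS libraries (SD). Its rise was 3.16 ± 0.39 on metformin and 2.58 ± 0.37 on vehicle (edgeR adjusted p = 1.83e-05 and 0.000191). Il4ra, the receptor chain for interleukin 4, rose by 0.71 ± 0.08 on metformin and 0.39 ± 0.07 on vehicle (edgeR adjusted p = 3.61e-06 and 0.00199). The mannose receptor gene Mrc1 rose on metformin (0.16 ± 0.05; edgeR adjusted p = 0.0286), and Tfrc, the transferrin receptor gene, rose on vehicle (0.92 ± 0.12; edgeR adjusted p = 7.24e-05).

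Krt79 encodes keratin 79, an intermediate filament protein that is neither secreted nor on the surface and that marks alveolar macrophages among mouse macrophages (ENSMUSG00000061397; chromosome 15, 101929332 to 101940324, minus strand). It had 657, 649 and 756 CPM in metformin PM libraries and 609, 633 and 628 CPM in vehicle PM libraries. The PBS groups held 636, 641 and 659 CPM on metformin and 611, 609, 642 and 681 CPM on vehicle. All 4 groups lay within a narrow range, with 1 metformin PM library above the rest. Krt79 was called in none of the 5 comparisons. Its log2 fold change with PM was 0.09 ± 0.06 on metformin (95% interval −0.03 to 0.21; edgeR adjusted p = 0.372) and −0.03 ± 0.06 on vehicle (−0.15 to 0.09; edgeR adjusted p = 0.871).

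The 30 other alveolar macrophage markers also moved in both directions. Of 29 tested, 8 rose and 6 fell with PM on metformin, and 5 rose and 7 fell on vehicle, against 12.8% and 4.85% of all tested genes called in either direction. Their median log2 fold change was −0.04 on metformin and −0.00061 on vehicle, against 0.0048 and −0.0013 over all tested genes. On metformin the scavenger receptor gene Marco rose (1.44 ± 0.18), and Fcgr1, the high-affinity receptor for immunoglobulin G (−0.67 ± 0.08), the growth factor receptor gene Flt1 (−0.48 ± 0.07) and the keratin gene Krt19 (−0.53 ± 0.08) were among those that fell. On vehicle Marco (0.62 ± 0.16), the lipid-binding protein genes Fabp5 (0.54 ± 0.09) and Fabp4 (0.53 ± 0.09), the arginine transporter gene Slc7a2 (0.45 ± 0.07) and the proton pump subunit gene Atp6v0d2 (0.20 ± 0.05) rose. Flt1 (−0.48 ± 0.06) and the fatty acid-binding protein gene Fabp1 (−0.55 ± 0.07) were among those that fell.

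The comparison of metformin with vehicle asks what followed the drug within each instillate. After PBS, 0 of the 9 genes were called in edgeR's test, against 3.07% of all tested genes, and DESeq2 and limma-voom also called 0. At an unadjusted p under 0.05 there were 4, namely Csf2ra, Chil3, Car4 and Ear2. The 3.07% is a share of adjusted calls, and the share of all tested genes at this unadjusted p was not counted. Libraries did not overlap for 3 of the 9 genes (Siglecf, Ear2 and Csf2ra, all higher on metformin), against 13.7% of all tested genes. Csf2ra had the lowest p, at 571 ± 22.2 CPM in metformin PBS and 501 ± 24.9 CPM in vehicle PBS libraries (SD), a log2 fold change of 0.19 ± 0.06 (95% interval 0.06 to 0.32; edgeR adjusted p = 0.105). The others were −0.22 ± 0.08 for Chil3, −0.23 ± 0.09 for Car4 and 0.10 ± 0.04 for Ear2.

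After PM, Car4 alone was lower on metformin and no member was higher, against 6.89% of all tested genes called (4.08% higher and 2.81% lower). Car4 averaged 749 ± 84.7 CPM in metformin PM and 936 ± 117 CPM in vehicle PM libraries (SD, n = 3 each), a log2 fold change of −0.32 ± 0.09 (edgeR adjusted p = 0.0360). The groups overlapped, since the highest metformin library (843 CPM) exceeded the lowest vehicle library (810.0 CPM). The call did not hold without metformin PM 1 (−0.26; edgeR adjusted p = 0.167), metformin PM 4 (−0.30; 0.118), vehicle PM 2 (−0.31; 0.111) or vehicle PM 3 (−0.25; 0.161). After PBS Car4 averaged 370 ± 33.4 CPM in metformin and 433 ± 31.4 CPM in vehicle libraries, and the difference of its PM effects between the arms was −0.09 ± 0.13 (95% interval −0.36 to 0.17; edgeR adjusted p = 0.845). Libraries did not overlap for 1 gene, Krt79, which was higher in all 3 metformin PM libraries (0.14 ± 0.06; edgeR adjusted p = 0.181), against 26.5% of all tested genes. Ear1 had a log2 fold change of 0.17 ± 0.07 (edgeR adjusted p = 0.137) and was called when vehicle PM 1 was left out (0.25 ± 0.07; edgeR adjusted p = 0.0397).

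**Figure D5:**
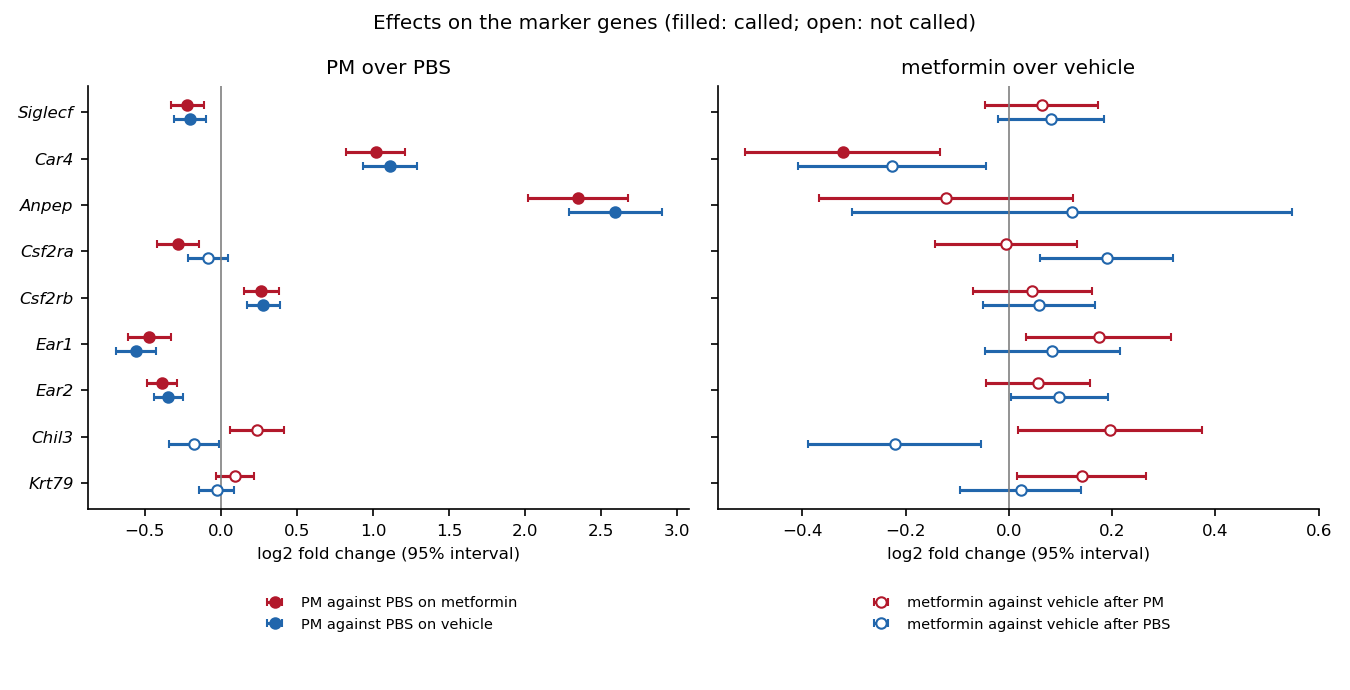
Log2 fold change of each marker gene with its 95% interval, PM over PBS in the left panel and metformin over vehicle in the right panel, filled where the adjusted p was under 0.05. In the left panel 6 genes are filled in both arms and Csf2ra on metformin, and in the right panel Car4 after PM is the only filled point.

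Whether the effect of PM differed between the arms was tested as the difference of the 2 effects. In edgeR's test 0 of the 9 genes were called, against 1.44% of all tested genes, and DESeq2 and limma-voom also called 0. At an unadjusted p under 0.05 there were 2, Chil3 and Csf2ra. The 1.44% does not apply to this count, since the share of all tested genes at that unadjusted p was not counted. For the genes with the largest PM effects the intervals of the difference were −0.36 to 0.17 for Car4, −0.74 to 0.25 for Anpep and −0.10 to 0.28 for Ear1. The comparisons of metformin share libraries with those of PM, so their values for a gene are not independent of each other.

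Of the 25 tested partners of the receptor, metformin was followed by 1 rise after PBS, and by 1 rise and 3 falls after PM. Of all tested genes 3.07% were called after PBS and 6.89% after PM. After PBS Pim1 rose (0.30 ± 0.08; edgeR adjusted p = 0.0391). After PM the feedback inhibitor gene Socs2 rose (0.42 ± 0.10; edgeR adjusted p = 0.0177), and Ptpn6 (−0.25 ± 0.05), Stat5a (−0.32 ± 0.08) and Spi1 (−0.19 ± 0.06) fell, with edgeR adjusted p = 0.00512, 0.0172 and 0.0491. In the interleukin 4 list Fcgr2b (0.34 ± 0.08) and Tfrc (0.47 ± 0.13) rose after PBS. After PM Il4ra (0.56 ± 0.08) and Socs2 rose and Tfrc fell (−0.58 ± 0.12). Among the 29 other alveolar macrophage markers 2 rose (Mertk, 0.28 ± 0.06, and Fcgr1, 0.32 ± 0.08) and 3 fell (Marco, −1.11 ± 0.17, Lpl, −0.31 ± 0.06, and Serpinb1a, −0.39 ± 0.08) after PBS. After PM 2 rose (Cidec, 0.33 ± 0.06, and Plet1, 0.28 ± 0.05) and 2 fell (Lpl, −0.34 ± 0.06, and Atp10a, −0.24 ± 0.05).

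The order of the groups differed by gene. Siglecf, Ear1 and Ear2 were highest in metformin PBS and lowest in vehicle PM libraries, and the 2 PM groups overlapped for each of these genes. Car4 was highest in vehicle PM and lowest in metformin PBS libraries, with overlap between the arms within each instillate. Csf2rb was highest in metformin PM and lowest in vehicle PBS libraries, again with overlap within each instillate. Within groups the coefficient of variation was lowest for Ear2 (0.508% to 5.08%) and highest for Anpep (11.6% to 15.9%), with Chil3 at 7.52% to 11.9%.

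For each member called at least once, the 3 genes with the most similar profile over the 13 libraries were taken from 10607 candidates by the root-mean-square difference of centred log2 CPM. Nearest to Anpep were Cfb (0.307), Wfdc17 (0.329) and Hp (0.404), beside a spread of 1.22 of Anpep around its own mean. Nearest to Car4 were C3 (0.153), Ctsk (0.195) and Tnfaip3 (0.200), beside a spread of 0.552. Nearest to Ear1 were Zfp395 (0.0953), its near copy Ear2 (0.104) and Agmo (0.109), and nearest to Ear2 were Themis2 (0.0653), Dok3 (0.0681) and Lsp1 (0.0718). Siglecf was closest to Itgal (0.0409), Csf2ra to Kmt2e (0.0513) and Csf2rb to B4galt1 (0.0579). All of these profiles share the same libraries and scaling, and a gene with a small spread is close to many others.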

How the data were processed

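RNA of sorted alveolar macrophages was read as 75 bp single ends. The submitters' processing notes name bcl2fastq (version 2.19), TopHat2, HTSeq, edgeR and the build mm10. The table that the authors deposited gives a raw whole-number count per gene and library and, as other values the authors deposited, gene coordinates and a length. The annotation release, strand setting and handling of shared reads are not given in the sources used here, and the kit does not mark strand. Ear1, Csf2rb and Csf2rb2 overlap another gene on their own strand, so reads there are less certain. The overlap is 17 exonic bases for Ear1 and 62 for Csf2rb and for Csf2rb2. The other genes there had 0 to 2 counts over the 13 libraries.

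Of the 43430 identifiers, 42462 matched a symbol. Counts were filtered with filterByExpr, scaled by TMM (trimmed mean of M values) and fitted in edgeR 4.0.16 (R 4.3.3) by quasi-likelihood with 1 coefficient for each of the 4 groups (9 residual degrees of freedom), with Benjamini-Hochberg adjustment over 11906 genes in each of 5 comparisons. An SE is the log2 fold change divided by the square root of F. CPM uses the scaled library sizes. The plan took lengths from the deposited column, but that column sums the exons of all transcripts and exceeds the span of some genes, so levels between genes use merged exons of GENCODE M21, a choice made after seeing the data.

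Named genes are the 9 members, their close paralogs, the 3 genes most like each called member, and of each list up to 4 called genes with the lowest adjusted p and all of a count of 5 or fewer. Members and lists were chosen with earlier results of these data known. Alternatives were other scalings, DESeq2 1.42.0, limma-voom (limma 3.58.1), no filter, a stricter filter (5 CPM in 3 libraries), only the groups compared, a replicate block, leaving out each library, and paralog counts summed. The fit was tested on simulated data. Depth was 5.57 to 8.10 megacounts per library. Figures were drawn with Matplotlib 3.10.9.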

Additional observations from a re-analysis of the deposited data

Results flagged for a closer look

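Among the genes counted in the lists, the effect of PM differed between the metformin and vehicle arms for 4, by the test of the difference itself (edgeR's quasi-likelihood test, adjusted over all tested genes). Stat5a, a transducer of GM-CSF receptor signals, had a difference of −0.48 ± 0.11 on the log2 scale (SE; edgeR adjusted p = 0.0229), with 60.1 ± 3.53 CPM in metformin PM, 74.7 ± 0.484 in vehicle PM, 82.7 ± 8.37 in metformin PBS and 73.9 ± 5.02 in vehicle PBS libraries (SD). Pim1, a survival kinase gene, had a difference of −0.48 ± 0.11 (edgeR adjusted p = 0.0413), with 486 ± 13.3, 548 ± 53.1, 517 ± 70.4 and 419 ± 28.6 CPM in the same order. Tfrc, the transferrin receptor gene, had a difference of −1.05 ± 0.18 (edgeR adjusted p = 0.00458), with 20.9 ± 1.38, 31.2 ± 4.24, 22.8 ± 3.37 and 16.4 ± 2.08 CPM. Apoe, a lipoprotein gene listed among markers of monocyte-derived macrophages, had a difference of −1.06 ± 0.20 (edgeR adjusted p = 0.00805), with 49.8 ± 9.67, 49.2 ± 9.05, 107 ± 16.5 and 50.7 ± 6.39 CPM. For Apoe the metformin PBS group alone lay apart. None of the 9 markers was among the 171 genes whose PM effect differed. Dixon's test flagged no vehicle PBS library, the only group of 4, in a marker or in Csf2rb2, Ear6 or Chil4. With 4 libraries that test can flag little, and Ear10 was left out of it.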

How the results depend on the processing

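Of 792 values of the 9 markers under the alternatives, 755 kept their direction and their side of the threshold, 9 lost a call, 12 gained one and 16 changed sign; the signs that changed belonged to uncalled values near 0. No other scaling, DESeq2 or limma-voom changed a marker's direction. Without a filter, 3 markers were called after PBS with metformin against 0 (Chil3 −0.22, Car4 −0.22, Csf2ra 0.19), 2 after PM with metformin against 1, and 1 in the difference of the PM effects against 0 (Chil3, 0.40). In the pooled lists of partners it called 22 genes after PM with metformin against 10, and 11 in the difference against 3, where DESeq2 called 5. Calls over all genes changed too. Of 21968 genes without a filter, 404 were higher and 409 lower with metformin after PBS, against 365 called of 11906. After PM 629 were higher and 545 lower, against 820 called, and in the difference 277 and 230, against 171. On library totals the vehicle PM means were 487.7 CPM for Siglecf and 1034.3 CPM for Ear2. The replicate numbers of the titles did not pair the libraries (1 of 11 same-numbered pairs correlated above 0.1, range −0.102 to 0.116; 7 of 22 libraries were closest to their own number, among them all 4 of the 2 pairs of metformin and vehicle after PM). With a replicate block 0 markers were called after PM with metformin (Car4 −0.28, edgeR adjusted p = 0.0815), and 6 listed genes in the difference. Signs changed for Krt79 with PM on vehicle under the replicate block (0.0060), for Csf2ra after PM with metformin under the stricter filter (0.00072), and for Ear1 (−0.0055) and Csf2rb (0.0024) in the difference with paralogs summed. Leaving out a library gave 6 to 7 markers and 20 to 23 listed genes called for PM on metformin, and 5 to 6 and 16 to 21 for PM on vehicle. It gave 0 to 1 and 3 to 8 for metformin after PBS, 0 to 2 and 6 to 12 for metformin after PM, and 0 to 1 and 1 to 6 for the difference. Values near 0 that changed sign ranged from −0.059 to 0.023 (Csf2rb) and −0.068 to 0.024 (Siglecf) in the difference, −0.048 to 0.0064 for Krt79 with PM on vehicle, −0.00090 to 0.23 for Anpep after PBS with metformin and −0.083 to 0.052 for Csf2ra after PM with metformin. With the deposited length Siglecf, Car4, Krt79, Csf2ra and Csf2rb ranked 8, 7, 4, 5 and 6 among the 9 markers, against 5, 4, 7, 6 and 8. The causes of these changes were not tested. Depth limits Anpep in PBS libraries, where it had 28 to 41 counts.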
